A study of Homo sapiens with 24 samples.

Results

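The transcripts described here are small non-coding RNAs made by RNA polymerase III: the 7SK RNA (RN7SK), the RNA of RNase MRP (RMRP), the RNA of RNase P (RPPH1), 2 genes of the 7SL RNA (RN7SL1 and RN7SL2) and 4 gene copies of the U6 small nuclear RNA (RNU6-1, RNU6-2, RNU6-8 and RNU6-9). They were taken by name, 9 names on 10 of the 60658 rows of the deposited count table, which holds 58686 different names. RN7SK stands on 2 rows with the same count in every library and was counted once. The members were chosen by name and selected on their levels in the 4 setups, which had been seen in these libraries, so the levels by setup are given as a description with no test. The difference between knockdown and control played no part in the choice and was tested.

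The libraries came from human cells labelled SH-SY5Y, a neuroblastoma line, in which the circular RNA ciRS-7 (CDR1as) was targeted in 4 ways. Each way, or setup, had 3 libraries with a targeting reagent (KD) and 3 with a non-targeting one (NTC), 24 in all. In the agoshRNA KD and agoshRNA NTC groups the cells received a vector expressing an agoshRNA, a short hairpin that is cut by Argonaute instead of Dicer. In the gRNA KD, gRNA NTC, pre-gRNA KD and pre-gRNA NTC groups they received the plasmid pcDNA3_CasRx-GFP, which encodes a fusion of GFP and CasRx, a Cas13 nuclease that cuts RNA, together with a plasmid for the mature (gRNA) or the precursor (pre-gRNA) guide. In the syn-gRNA KD and syn-gRNA NTC groups the guide was chemically synthesised, per the title of the series, and its delivery is not described in the labels. The promoters of the hairpin and guide vectors are not given in the sources used here. RNA was taken 48 h after transfection of plasmids with a lipid reagent, and poly(A) RNA was sequenced without strand information as pairs of 100 nt reads. Libraries are named by setup, arm and the letter A, B or C in their column name.

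RNA polymerase III makes short transcripts that end in a run of U and carry no poly(A) tail. U6 forms the catalytic core of the spliceosome together with U2, 7SK holds the elongation kinase P-TEFb in an inactive particle, 7SL is the scaffold of the signal recognition particle, and the RNAs of RNase P and RNase MRP are needed to process transfer RNA and ribosomal RNA precursors. U6, 7SK, RPPH1 and RMRP genes have promoters that lie upstream of the transcript, and the promoter of a human U6 gene is widely used in plasmids to express hairpins and guides. In poly(A)-selected libraries the counts of such RNAs give what was carried through the selection, not their abundance in the cell. In bulk libraries, fewer cells with an RNA and less of it per cell cannot be told apart.

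The 4 U6 genes are known to give near-identical transcripts, which bears on every count per copy. RNU6-1 lies at chr15:68132277-68132383 on the minus strand, RNU6-2 at chr19:1021521-1021627 on the plus strand, RNU6-8 at chr14:32672369-32672475 on the minus strand and RNU6-9 at chr19:893484-893590 on the plus strand (hg19, from the deposited table). Many related U6 pseudogenes are also annotated in the human genome. How reads that match several copies were assigned is not given in the sources used here, so the split of counts between copies is uncertain.

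The 2 genes for 7SL are also known to be near-identical to each other. RN7SL1 lies at chr14:50053297-50053596 on the plus strand, inside the span of RPS29 on the other strand, and RN7SL2 at chr14:50329271-50329567 on the minus strand, inside the span of the non-coding gene RP11-596C23.6. The split of counts between these 2 genes is uncertain for that reason. RN7SK lies at chr6:52860418-52860748 on the plus strand, RMRP at chr9:35657748-35658015 on the minus strand, and RPPH1 at chr14:20811207-20811844 on the minus strand, where 104 of its 638 annotated bases overlap PARP2.

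Total counts per library ranged from 10994974 to 16233777. One library stood apart from the others of its setup more often than any other: gRNA KD A was isolated on the high side for 1.38% and on the low side for 2.98% of 20172 genes by Dixon's criterion, against at most 0.93% and 0.22% for the other 23 libraries. The linear host transcript of ciRS-7, LINC00632, had 16 to 101 counts in the 12 KD and 31 to 132 in the 12 NTC libraries, and CDR1-AS had 0 to 15 and 2 to 16. A circle without a poly(A) tail is not a target of this selection, so these counts do not check the knockdown. Of 8 markers of noradrenergic neuroblastoma, PHOX2A, STMN2, ELAVL4 and ELAVL3 had means under 3 counts, while GATA2 (499.2), HAND1 (304.2), CHRNA3 (181.6) and INSM1 (87.2) were present. Of 5 kidney-lineage markers, HOXA9 (mean 1375 counts), HOXA10, HOXA11 and PAX2 were present and PAX8 was near 0. The summed level of the first list ran from 47.9 to 113 CPM (a gene's count divided by the library total and rescaled) and that of the second from 126 to 327 CPM. Each list was present only in part, through the genes named as present, and these were found in every setup. The part of either list in the results was not tested.

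RNU6-1 had far higher counts in the agoshRNA setup than anywhere else, in KD and in NTC libraries alike. The agoshRNA KD libraries A, B and C had 196, 281 and 301 counts of RNU6-1, and the agoshRNA NTC libraries had 201, 250 and 394. In the gRNA setup the KD libraries had 8, 6 and 2 counts and the NTC libraries 17, 16 and 9. The pre-gRNA KD libraries had 16, 9 and 4 counts and their NTC 9, 10 and 6, and the syn-gRNA KD libraries had 8, 7 and 3 and their NTC 5, 9 and 7. Scaled to library size, the 6 agoshRNA libraries lay between 14.3 and 32.0 CPM and the other 18 between 0.145 and 1.21 CPM, with no overlap. The setup means of RNU6-1 were 20.7 ± 6.95 CPM (SD, n = 6) in agoshRNA, 0.705 ± 0.415 in gRNA, 0.577 ± 0.271 in pre-gRNA and 0.483 ± 0.156 in syn-gRNA. The agoshRNA mean was 29.3-fold that of gRNA, 35.8-fold that of pre-gRNA and 42.8-fold that of syn-gRNA. Among the 20172 genes that reached 10 counts in 3 or more libraries, the ratio of agoshRNA to the mean of the other 3 setups was the highest for RNU6-1. The 3 other setups followed each other with differences smaller than their own spread.

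**Figure D1:**
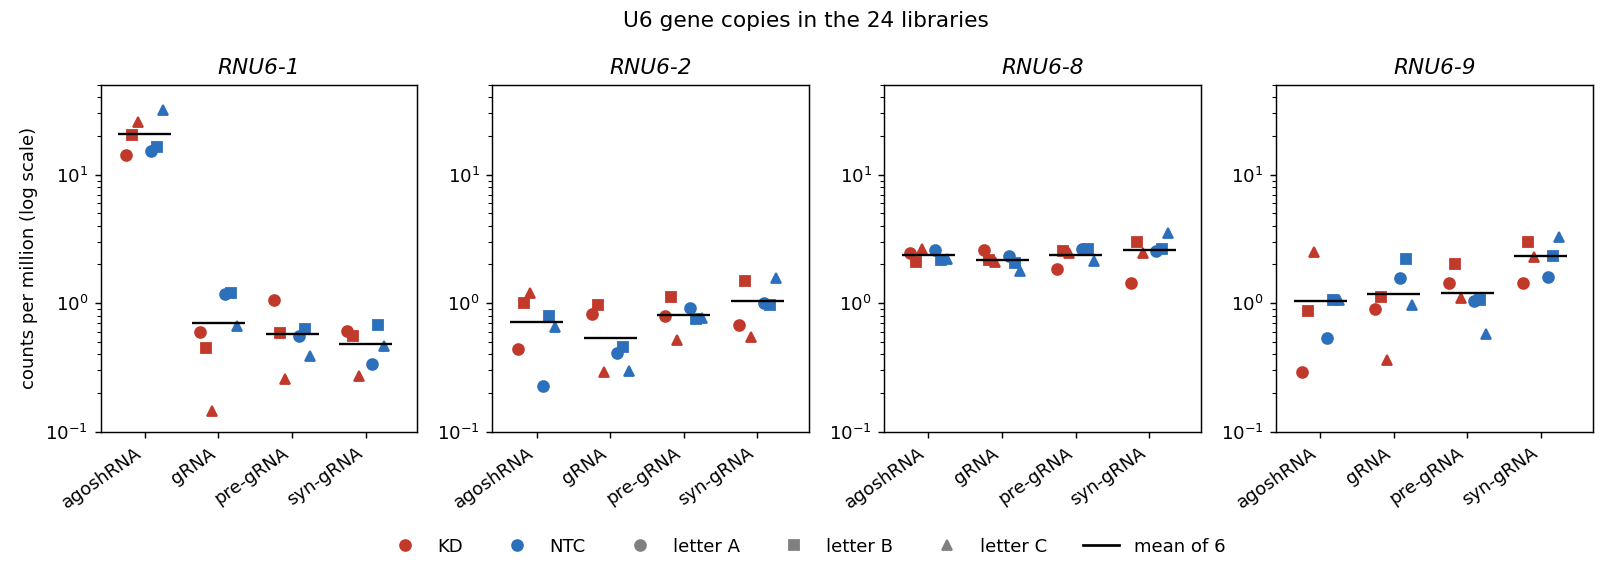
Level of the 4 U6 copies in each library, in CPM on a log axis, with KD in red and NTC in blue, a marker shape for each column letter and a line at the mean of the 6 libraries of a setup. RNU6-1 lies between 14.3 and 32.0 CPM in agoshRNA and at or below 1.21 CPM elsewhere, while the other 3 copies stay between 0.228 and 3.49 CPM in every setup.

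The 3 other U6 copies showed no such excess in the agoshRNA setup. RNU6-8 was the most even of them, with 19 to 53 counts in the 24 libraries and setup means of 2.36 ± 0.241 CPM in agoshRNA, 2.17 ± 0.282 in gRNA, 2.37 ± 0.325 in pre-gRNA and 2.59 ± 0.683 in syn-gRNA (SD, n = 6). RNU6-2 had 3 to 24 counts, and its setup means ran from 0.540 ± 0.287 CPM in gRNA to 1.05 ± 0.420 in syn-gRNA. The order of setups for both copies rested on differences smaller than the spread. RNU6-9 had 4 to 50 counts. Its mean was 2.32 ± 0.734 CPM in syn-gRNA against 1.05 ± 0.766, 1.18 ± 0.631 and 1.21 ± 0.486 in agoshRNA, gRNA and pre-gRNA, so only the step from syn-gRNA to the next setup exceeded the larger SD, and the libraries overlapped. Within the agoshRNA setup RNU6-9 ranged from 0.291 CPM in KD A to 2.48 in KD C.

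RNU6-1 thus made up a different part of all U6 counts in the agoshRNA libraries. Over the 1321 rows named as U6 copies, including pseudogenes, RNU6-1 took 35.0 to 52.3% of the counts in the 6 agoshRNA libraries and 0.364 to 3.86% in the other 18. The other U6 rows together gave 28.5 ± 5.90 CPM in agoshRNA, 33.2 ± 6.92 in gRNA and 30.6 ± 8.52 in pre-gRNA (SD, n = 6), values that differed by less than their spread. They gave 51.6 CPM in syn-gRNA, where the 6 libraries ran from 46.4 to 58.6 CPM and lay above the other 18, which reached at most 41.8. The non-coding gene RP11-34F13.3, whose span holds RNU6-1 on the opposite strand, had only 10 counts over the 6 agoshRNA libraries, and 14, 16 and 13 over those of gRNA, pre-gRNA and syn-gRNA.

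**Figure D2:**
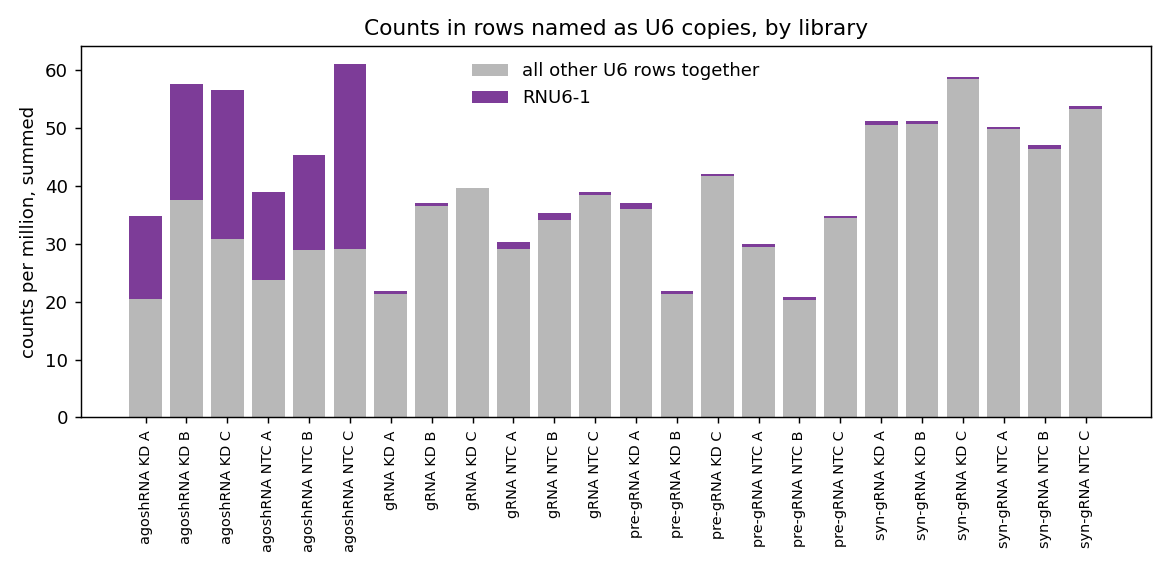
Summed CPM of all rows named as U6 copies in each library, with RNU6-1 in purple on top of the other rows in grey. The purple part is 35.0 to 52.3% of the bar in the agoshRNA libraries and at most 3.86% in the others.

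The 2 genes for 7SL RNA were highest in the syn-gRNA setup. RN7SL1 had 108, 113 and 93.6 CPM in syn-gRNA KD A, B and C and 108, 93.5 and 85.3 in the NTC libraries. In the gRNA setup it had 51.6, 48.9 and 50.7 CPM in KD and 38.2, 39.9 and 73.6 in NTC. Its lowest, median and highest values were 20.8, 25.2 and 68.3 CPM in agoshRNA and 19.0, 29.5 and 61.1 CPM in pre-gRNA. All 6 syn-gRNA libraries lay above the other 18. The syn-gRNA mean of RN7SL1, 100.2 ± 10.9 CPM (SD, n = 6), was 1.98-fold that of gRNA, 2.76-fold that of pre-gRNA and 3.11-fold that of agoshRNA. RN7SL2 followed the same pattern, at 111 ± 12.2 CPM in syn-gRNA, 60.1 ± 14.9 in gRNA, 43.4 ± 18.5 in pre-gRNA and 37.8 ± 24.1 in agoshRNA, and its lowest syn-gRNA library (92.8 CPM) lay above the highest of the others (88.4 CPM). RPS29, a ribosomal protein gene whose span holds RN7SL1, had 42660 counts over the 6 syn-gRNA libraries and 37914, 30782 and 36198 over those of agoshRNA, gRNA and pre-gRNA. Below syn-gRNA, the steps between neighbouring setups were smaller than the spread for both genes. Across the 24 libraries the 2 genes had a Pearson r of 0.99 on the log2 scale, a description of rows that can share reads.

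Certain libraries carried high 7SL counts outside the syn-gRNA setup. The agoshRNA NTC C library had 842 counts of RN7SL1 and 1061 of RN7SL2, against 285 to 460 and 336 to 444 in the other 5 agoshRNA libraries. In gRNA NTC C they had 997 and 1197 counts, and both C libraries of the pre-gRNA setup (950 and 792 counts of RN7SL1) were above its A and B libraries (304 to 472). The small nucleolar RNA rows, another class of short non-coding RNA, were also high in syn-gRNA: their summed level had a median of 2033 CPM there against 490.5 in agoshRNA, 480 in gRNA and 468 in pre-gRNA, and its lowest syn-gRNA library (1157 CPM) was above the highest of the others (798 CPM). Pseudogene rows of 7SL summed to a median of 36.3 CPM in syn-gRNA and 17.9 to 26.1 in the other setups. Whether the 7SL levels share a source with these rows was not tested.

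RN7SK had its highest mean in syn-gRNA but overlapped with the other setups. It had 196, 266 and 294 counts in syn-gRNA KD A, B and C and 167, 406 and 545 in the NTC libraries, or 11.2 to 35.8 CPM. In agoshRNA it ran from 4.03 to 17.04 CPM with a median of 7.70, and in pre-gRNA from 3.94 to 14.7 with a median of 5.49. In gRNA, KD A had 482 counts (35.9 CPM) and the other 5 libraries 75 to 161 (5.42 to 12.04 CPM). The setup means were 23.3 ± 9.42 CPM in syn-gRNA, 12.4 ± 11.8 in gRNA, 9.22 ± 4.68 in agoshRNA and 7.67 ± 4.26 in pre-gRNA (SD, n = 6), and no step between neighbours in that order exceeded the larger SD. Libraries of one letter were alike in some setups: the B libraries were the highest of each arm in pre-gRNA (14.7 and 11.1 CPM) and the A libraries the lowest of each arm in agoshRNA and syn-gRNA.

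RPPH1 and RMRP, the RNAs of the related enzymes RNase P and RNase MRP, differed in level and in evenness. RPPH1 had 42 to 139 counts in the 24 libraries, with means of 8.59 ± 1.24 CPM in syn-gRNA, 7.10 ± 0.939 in gRNA, 5.55 ± 2.13 in agoshRNA and 5.22 ± 2.26 in pre-gRNA (SD, n = 6). The step from syn-gRNA to gRNA exceeded the larger SD, the others did not, and the libraries of all setups overlapped. Its r with RN7SL1 over the 24 libraries was 0.85 and with RN7SL2 0.83. RMRP had 2 to 33 counts in 23 libraries and 104 in gRNA KD A. Its mean of 1.75 ± 2.94 CPM in gRNA was therefore set by that library, and the other setups were at 0.529 ± 0.223 (agoshRNA), 0.839 ± 0.468 (pre-gRNA) and 1.07 ± 0.730 CPM (syn-gRNA). Without gRNA KD A the log2 ratio of gRNA over pre-gRNA went from 1.06 to -0.61, and that of gRNA over syn-gRNA from 0.71 to -0.95.

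**Figure D3:**
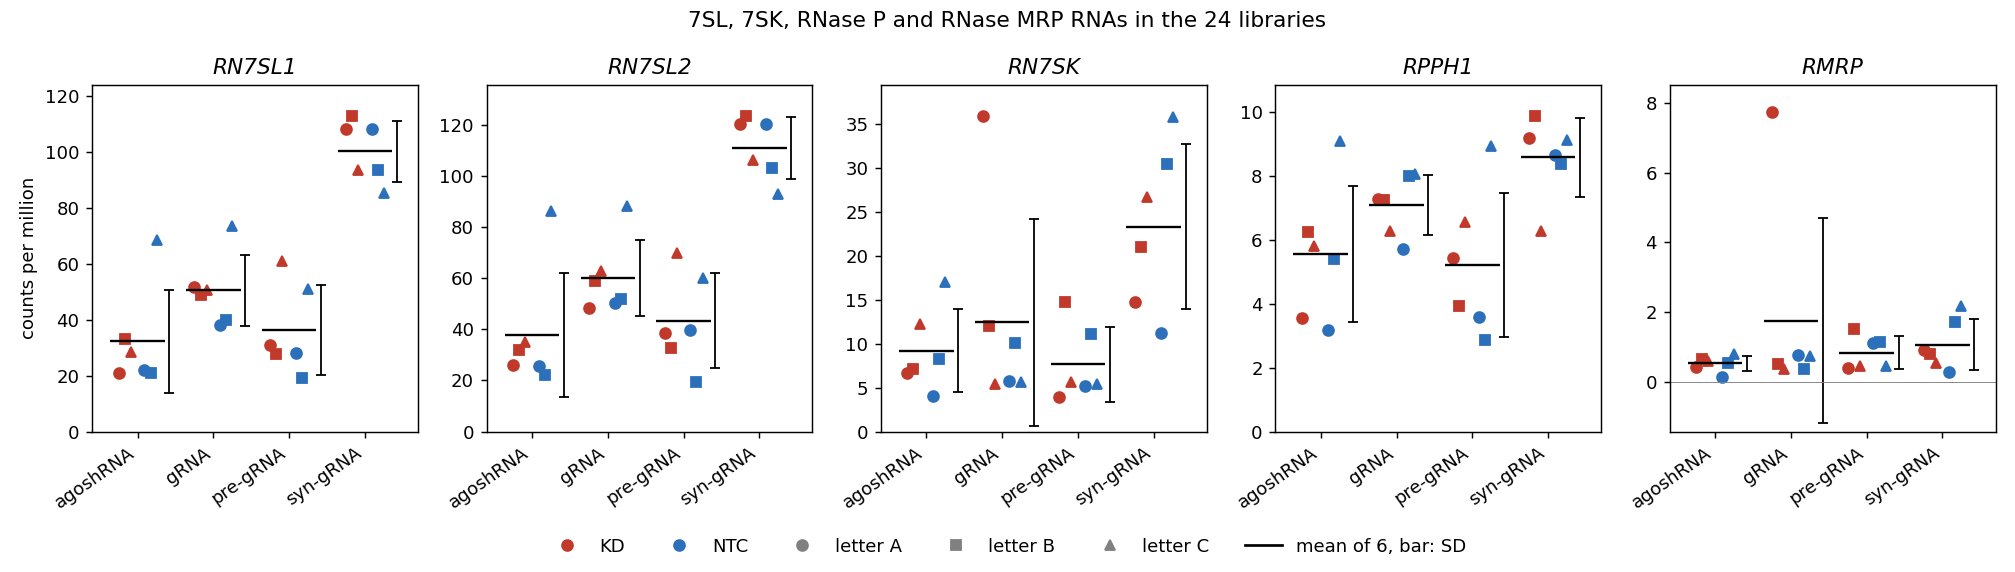
Level of RN7SL1, RN7SL2, RN7SK, RPPH1 and RMRP in each library, in CPM on linear axes, with KD in red, NTC in blue, a marker shape for each letter, a line at the mean of 6 libraries and a bar for its SD. The syn-gRNA libraries of RN7SL1 (85.3 CPM and above) and RN7SL2 (92.8 and above) clear all others, and gRNA KD A stands alone for RN7SK (35.9) and RMRP (7.74).

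Per length of the annotated gene, the 24-library means put the 7SL genes first. The U6 genes have 107 annotated bases, near the 100 nt of a read, so the order of short against long genes is uncertain. The uncertain split of counts between copies applies here too. RN7SL2 had 212 and RN7SL1 183 CPM per kilobase, followed by RNU6-1 (52.4), RN7SK (39.8), RNU6-8 (22.2), RNU6-9 (13.5), RPPH1 (10.4), RNU6-2 (7.28) and RMRP (3.90). RNU6-1 owed its place to 1 setup: at 193 CPM per kilobase in agoshRNA it was above RN7SL1 (107) and RN7SL2 (127) there, and at 4.51 to 6.59 in the other setups it was below RNU6-8 (20.3 to 24.2).

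Set against all genes, non-overlap between setups was rare without syn-gRNA and common with it. The 6 libraries of agoshRNA and of gRNA did not overlap for 1 of 9 members (RNU6-1) and for 0.416% of the 20172 genes, and those of agoshRNA and pre-gRNA for the same member and 0.431%. For gRNA and pre-gRNA there was no member, and 0.0545% of genes. For syn-gRNA there were 3 members against agoshRNA (RNU6-1 lower, RN7SL1 and RN7SL2 higher; 7.01% of genes), 2 against gRNA (13.5%) and 2 against pre-gRNA (16.2%), the 7SL genes in each case. All 6 agoshRNA libraries lay above the other 18 for RNU6-1 and for 0.0545% of genes (11), and all 6 syn-gRNA libraries for RN7SL1, RN7SL2 and 2.19% of genes (442). These shares describe the setups and carry no test, since the levels chose the members. The median log2 ratio of the 9 members, syn-gRNA over the other 3 setups, was 0.60, beside -0.08 over all genes. The agoshRNA over the other 3 setups gave a median of -0.59 beside -0.07, with RNU6-1 at 5.13. With CPM, the all-gene median ratio was -0.11 for agoshRNA over gRNA and 0.13 for gRNA over syn-gRNA, and with DESeq2 size factors -0.01 and 0.03.

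**Figure D4:**
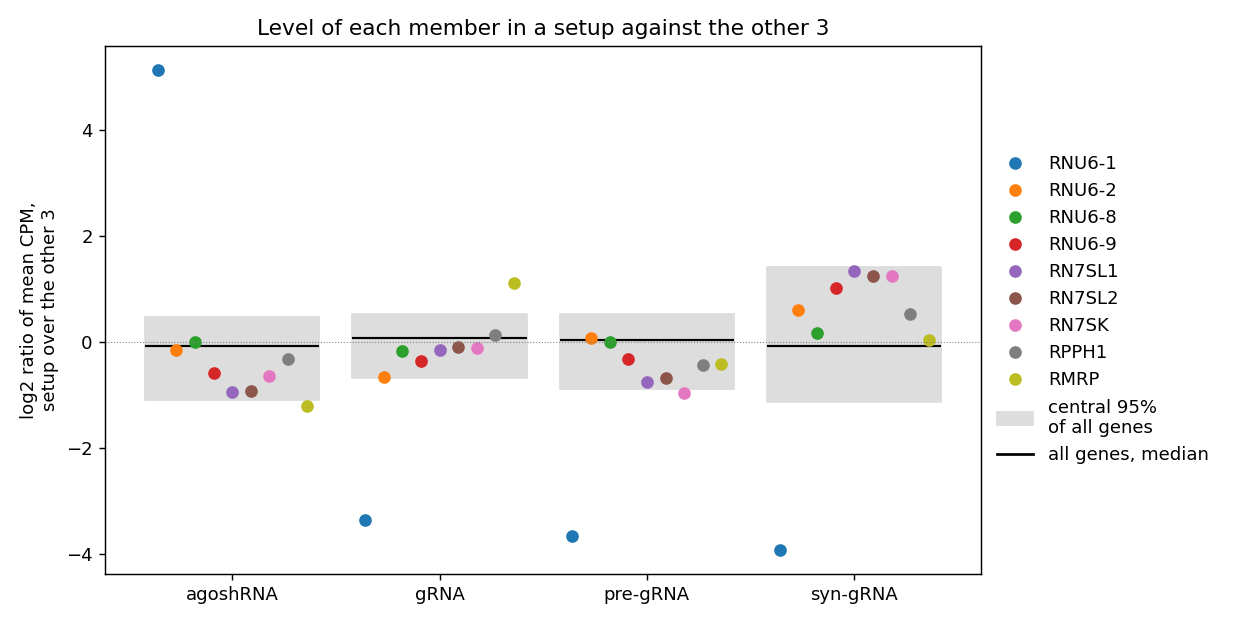
Log2 ratio of the mean CPM in one setup over the mean of the other 3 setups for each of the 9 members (points), with the range that holds the central 95% of 20172 genes in grey and their median as a line. RNU6-1 stands at 5.13 in agoshRNA, far outside the grey band, and at -3.36 to -3.92 in the other setups, whose comparison groups contain agoshRNA.

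No member differed between KD and NTC beyond the threshold in any setup. With the Wald test of DESeq2 and Benjamini-Hochberg adjustment over all genes, 0 genes passed an adjusted p of 0.05 in agoshRNA (of 17806), gRNA (of 18371), pre-gRNA (of 18717) or syn-gRNA (of 18513), so the share of genes called was 0.0% in each. At an unadjusted p under 0.05 there were 0, 17, 2 and 55 genes, and with edgeR's quasi-likelihood test 0 genes passed adjustment and 3, 34, 11 and 176 stood under that unadjusted level. With the column letter as a block, DESeq2 had 105, 113, 1011 and 241 genes under it, of which 0, 0, 0 and 1 passed adjustment. The adjusted p was 1.0 for every member tested without the block. With it, the interval of 1 member left 0, RN7SL1 in pre-gRNA (0.28, 95% interval 0.03 to 0.54, adjusted p = 0.831). RMRP fell under the count filter in agoshRNA, RNU6-2 in gRNA, and RNU6-1 in gRNA, pre-gRNA and syn-gRNA, so that RNU6-1 was tested within a setup only in agoshRNA. There its log2 fold change of KD over NTC was -0.03 ± 0.50 (SE), with a 95% interval of -1.02 to 0.96, between means of 20.1 ± 5.75 CPM in KD and 21.2 ± 9.32 in NTC (SD, n = 3).

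The largest fitted KD differences were those of RMRP and RN7SK in the gRNA setup, and 1 library carried both. RMRP had 104, 7 and 5 counts in gRNA KD A, B and C and 11, 5 and 10 in the NTC libraries. RN7SK had 482, 161 and 75 counts in KD and 83, 133 and 76 in NTC. For both, KD A was high and the other KD libraries lay among or near the NTC libraries. The log2 fold change was 2.39 ± 0.95 (SE) for RMRP and 1.46 ± 0.64 for RN7SK, both with an adjusted p of 1.0 by DESeq2. With the column letter as a block these were 1.02 ± 1.16 and 1.00 ± 0.83. Without gRNA KD A, RN7SK had 0.36 ± 0.53, and RMRP fell under the count filter. In the same library the summed level of the 18 polymerase II small nuclear RNAs was 4.24 CPM (gRNA median 2.90), BCYRN1 and the 11 other polymerase III RNAs summed to 268.6 CPM (median 135) and the snoRNA rows to 349 CPM (median 480). Their part in the RMRP and RN7SK values was not tested.

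For the 7SL genes the narrowest estimates came from the syn-gRNA setup, where RN7SL1 had a log2 fold change of 0.13 (95% interval -0.15 to 0.41) and RN7SL2 of 0.14 (-0.13 to 0.42). In the agoshRNA setup the same genes had -0.38 (-1.56 to 0.79) and -0.48 (-1.69 to 0.73), where NTC C was the high library. Without agoshRNA NTC C they were 0.40 and 0.41. RPPH1 lay between -0.14 in agoshRNA and 0.04 in pre-gRNA, with standard errors of 0.23 to 0.57. RNU6-8 lay between -0.34 and 0.27, and RNU6-9 between -0.89 in gRNA and 0.74 in pre-gRNA. The intervals allow changes of more than 2-fold in either direction for RNU6-9 in agoshRNA (-1.17 to 2.17), and none of these values shows that KD and NTC were alike.

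**Figure D5:**
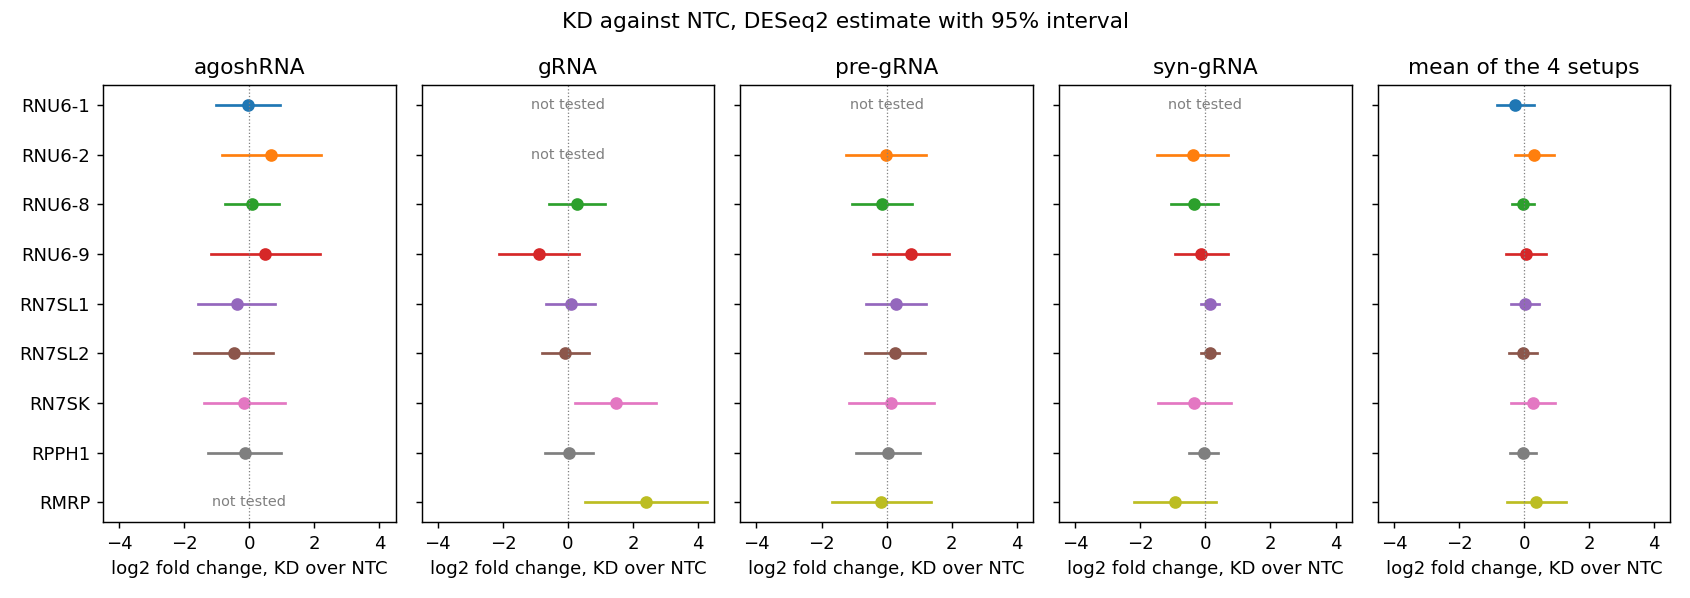
DESeq2 log2 fold change of KD over NTC for the 9 members in each setup and as the mean over the 4 setups, with 95% intervals as lines. Only the intervals of RMRP and RN7SK in gRNA leave 0, with an adjusted p of 1.0 each and gRNA KD A as the high library.

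KD and NTC overlapped, 3 libraries each, for nearly all members in a setup. They did not for RNU6-1 in gRNA, where KD had 0.396 ± 0.230 CPM and NTC 1.01 ± 0.303 on 2 to 17 counts, nor for RNU6-9 in pre-gRNA, where KD had 1.52 ± 0.471 CPM and NTC 0.897 ± 0.276 (SD, n = 3). Both reached 0.1 in the exact two-sided permutation test of 3 against 3 libraries, the smallest p that test can give. The same non-overlap was met by 2.62% of the 20172 genes in gRNA and 1.44% in pre-gRNA, and by 1.15% in agoshRNA and 5.19% in syn-gRNA, where no member had it.

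Taking KD minus NTC within each letter and setup gave 12 differences per member. RNU6-1 was lower in KD in 9 of 12 pairs, by a mean log2 difference of -0.18 ± 0.45 (SD), with an exact two-sided sign-flip permutation p of 0.186. The other 8 members had mean differences between -0.06 and 0.19, with exact permutation p-values from 0.455 to 0.946. For each of them between 5 and 8 of the 12 pairs were higher in KD. In the DESeq2 model of 24 libraries the mean KD effect over the 4 setups lay between -0.27 ± 0.29 (SE, RNU6-1) and 0.38 ± 0.46 (RMRP), all with an adjusted p of 1.0, and 0 of 20172 genes passed (0.0%; 36 at an unadjusted p under 0.05, with edgeR 0 and 46, and with the letter as a block 0 and 249). The mean for RMRP was -0.33 without gRNA KD A.

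The KD effect was also compared between setups, over the 6 pairs, and no member or other gene of 20172 passed in any pair (0.0%; 29 to 45 genes at an unadjusted p under 0.05 and, with edgeR, 0 and 46 to 61). With the letter as a block, 0 passed and 111 to 1840 genes stood under that unadjusted level. Without the block, the widest differences involved gRNA KD A again. For RMRP, gRNA minus syn-gRNA was 3.31 ± 1.29 (SE) on the log2 scale and gRNA minus pre-gRNA 2.57 ± 1.29, both with a DESeq2 adjusted p of 1.0, and without that library they were 0.47 ± 1.13 and -0.26 ± 1.12. For RN7SK, gRNA minus syn-gRNA was 1.79 ± 0.97, and 0.67 ± 0.94 without it. With the block, the differences of RMRP were 1.67 ± 1.24 and 1.46 ± 1.25, and that of RN7SK was 1.19 ± 0.71.

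Among the members' differences between setups with the block, the intervals that left 0 were those of RNU6-9 and RNU6-1. RNU6-9 was lower in KD in all 3 letter pairs of gRNA (log2 differences of -0.58, -0.73 and -0.76) and higher in all 3 of pre-gRNA (0.33, 0.69 and 0.56), on the log2(CPM + 0.5) scale. Its fitted gRNA minus pre-gRNA difference was -1.64 with the block (95% interval -2.83 to -0.44, DESeq2 adjusted p = 0.528) and -1.63 without it (-3.37 to 0.12, adjusted p = 1.0). For RNU6-1 the same difference was -1.45 with the block (-2.72 to -0.19, adjusted p = 0.528), and agoshRNA minus gRNA was 1.25 (0.24 to 2.25, adjusted p = 1.0). None of these passed the adjusted threshold. With the block, 1840 of all 20172 genes stood under the unadjusted level given above in gRNA minus pre-gRNA. In agoshRNA minus gRNA 150 did. Whether U6 copies differ from other genes in this respect was not tested. RNU6-9 rests on low counts in every setup, and RNU6-1 does so outside agoshRNA.

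Genes that moved with RNU6-1 across libraries followed the split between agoshRNA and the rest. Among 16300 other genes whose mean reached 20 counts, the 5 with the highest Pearson r of log2(CPM + 0.5) over the 24 libraries were DNAJB1 (0.91), CNIH4 (0.85), DNAJC1 (0.85), BAG3 (0.84) and ATP6V0E1 (0.84). DNAJB1, a co-chaperone of HSP70 induced by heat shock, averaged 461 CPM in agoshRNA and 86.4, 94.2 and 135 in gRNA, pre-gRNA and syn-gRNA. BAG3, another HSP70 partner, averaged 145 CPM in agoshRNA and 54.4 to 69.5 elsewhere. For RN7SK the 5 were SNHG9 (0.86), TBCA (0.85), TMA7 (0.85), GADD45B (0.85) and ZFAND2B (0.85), and SNHG9, a host transcript of a snoRNA, averaged 21.9 CPM in syn-gRNA and 7.33 to 9.09 in the other setups. These r values describe 24 libraries that fall into setups, and carry no test.

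Most other polymerase III RNAs were barely present. Of 12 listed, 8 had a mean under 3 counts, among them the 4 Y RNAs and RNU6-7, and only BCYRN1 (the BC200 RNA, mean 1884 counts) and RN7SL3 (83.3 counts) reached a mean of 20. RN7SL3 was highest in syn-gRNA, at 10.8 ± 1.96 CPM against 3.51 ± 1.95 in agoshRNA, 5.79 ± 1.48 in gRNA and 4.04 ± 2.05 in pre-gRNA (SD, n = 6). BCYRN1 had 139 ± 30.8 CPM in agoshRNA, 136 ± 71.3 in gRNA, 146 ± 48.2 in pre-gRNA and 116 ± 46.7 in syn-gRNA, differences smaller than the spread. None of 18 polymerase II small nuclear RNAs reached a mean of 20 counts. Their sum had a median of 5.03 CPM in syn-gRNA and 2.38 to 2.90 CPM in the other setups.

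The messenger RNAs of the polymerase III apparatus and of the particles these RNAs belong to were measured well and showed no call. In the fit over the 4 setups, 31 of 31 genes of the polymerase and its factors were tested, 20 had KD above NTC, and their median log2 fold change was 0.01, beside 0.03 over all genes. The proteins of the 7SK particle were all above 0 (7 of 7, median 0.10), the RNase P and MRP proteins in 5 of 11 (-0.03), the SRP proteins in 3 of 6 (0.01) and the U6 particle in 8 of 14 (0.02). None passed the adjusted threshold in this fit or in any setup. By setup, the median log2 ratio of syn-gRNA over the other 3 was -0.22 for the polymerase III apparatus, -0.26 for the RNase P and MRP proteins, 0.36 for the 7SK particle and 0.16 for the SRP proteins, beside -0.08 over all genes. The U6 particle had -0.05. For agoshRNA over the other 3 it was 0.02 for the U6 particle, 0.01 for the polymerase III apparatus, -0.23 for the 7SK particle (1 of 7 higher), -0.13 for the RNase P and MRP proteins (2 of 11) and 0.17 for the SRP proteins (5 of 6), beside -0.07 over all genes. No gene of these lists had all 6 libraries of a setup above or below the other 18. Of all 20172 genes, 0.0545% lay above in this way in agoshRNA and 2.19% in syn-gRNA. Between pairs of setups non-overlap did occur. Of the 31 polymerase III genes, 7 lay wholly above syn-gRNA in gRNA and 1 below, beside 13.5% of all genes in either direction. In pre-gRNA 5 lay above syn-gRNA and 2 below, beside 16.2%, and in agoshRNA 0 and 1, beside 7.01%. The other lists had such genes too. Of 11 RNase P and MRP genes, 1 lay below gRNA in agoshRNA, beside 0.416% of all genes. Above syn-gRNA lay 1 of them in gRNA and 1 in pre-gRNA. Of 7 genes of the 7SK particle, 1 lay below syn-gRNA in agoshRNA. Of 6 SRP genes, 1 lay below syn-gRNA in gRNA and 1 in pre-gRNA. Of 14 U6 particle genes, 1 lay above syn-gRNA in agoshRNA, 1 above and 1 below in gRNA, and 2 below in pre-gRNA.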

How the data were processed

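Raw counts per gene in 24 libraries were used as the authors deposited them, identical in 4 tables. Per the submitters' processing notes, Trim Galore, STAR 2.7.3a, featureCounts, DESeq2 and hg19 were used; roles, settings and annotation release are not given in the sources used here. The log2 fold changes and p-values that the authors deposited, and 24 columns of normalized counts per table, were not used. Whether replicates are separate cultures is not stated, so p-values measure the spread between these libraries.

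CPM are counts divided by the library total. DESeq2 1.42.0 (R 4.3.3, default size factors, at least 10 counts in at least 3 libraries, Benjamini-Hochberg over all genes) tested each setup on its 6 libraries, and 1 model of 24 libraries tested the mean KD effect and its differences between setups. Alternatives were edgeR 4.0.16 (TMM factors), TMM factors in DESeq2, no filter, at least 50 counts, the letter as a block, and leaving out each library. Exact permutation tests used log2(CPM + 0.5). The fits were tested on simulated data. Column letters cannot be linked to the replicate numbers of the labels. KD and NTC deviations of the same letter correlated in every setup (r = 0.31 to 0.96 over 18154 genes), so the letters were taken to pair libraries. Different letters ranged from -0.92 to 0.40. Deviations were taken from the mean of each group, which by itself lowers the values of different letters where the same letters correlate. In pre-gRNA, KD A had 0.56 with NTC A and 0.40 with NTC C. In syn-gRNA, KD B had 0.36 with NTC B and 0.34 with NTC C, and KD C had 0.31 with NTC C. The pairing of B and C is therefore uncertain in that setup.

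The text names all 9 members, the 5 genes most like RNU6-1 and like RN7SK, and the listed small RNAs with a mean of at least 20 counts. Members and lists were chosen with earlier results of these data known. Transcript sequences are not reported here.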

Additional observations from a re-analysis of the deposited data

Results flagged for a closer look

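In 6 of the 36 groups of 6 libraries examined (9 members in 4 setups), 1 library lay farther from its nearest neighbour, relative to the range of the group, than Dixon's 95% critical value. Chance flags about 1 in 20 such groups. Over all 20172 genes the share was 3.37%, and by setup it was 1.73% in agoshRNA, 6.16% in gRNA, 1.69% in pre-gRNA and 3.89% in syn-gRNA. Of the 6 among the members, 3 lay in agoshRNA and 3 in gRNA, with 9 groups in each setup. RN7SK was at 35.87 CPM in gRNA KD A, and RMRP at 7.74 CPM in the same library. RN7SL1 was at 68.32 CPM and RN7SL2 at 86.09 CPM in agoshRNA NTC C. RN7SL2 was at 88.4 CPM in gRNA NTC C, and RNU6-9 at 2.48 CPM in agoshRNA KD C. RN7SL1 and RN7SL2 share most of their sequence, so their pair of flags in agoshRNA NTC C is not independent.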

How the results depend on the processing

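No KD call of a member depended on the processing, since none was made. The count of genes called in syn-gRNA was 0 and became 1 with the replicate block (MALAT1), and ranged from 0 to 1 when each library was left out (WDR38 without syn-gRNA NTC A); both genes are no members and were named after their values were seen. In the other 10 comparisons it was 0 under every alternative run. The replicate block changed no other call. A tally of sign changes took the fitted KD differences within setups and over the 4 setups. Of the differences between setups it took only those of RN7SK and RMRP that involve gRNA. In this tally 6 values changed sign. With the block these were RN7SK in agoshRNA (0.007), and over the 4 setups RPPH1 (0.013), RN7SL2 (0.045) and RNU6-9 (-0.001). With TMM factors it was RPPH1 in gRNA (-0.005 in edgeR, -0.004 in DESeq2). Some differences outside the tally also changed sign with the block. RN7SK in agoshRNA minus pre-gRNA went from -0.29 to 0.04. RNU6-1 in agoshRNA minus syn-gRNA went from -0.0207 to 0.0085, and RN7SL1 in gRNA minus syn-gRNA from -0.044 to 0.022. The cause was not tested. The same tally, with each library left out in turn, holds no differences between setups for RNU6-1 or RNU6-9. In it 66 of 537 fitted log2 values were reversed, with these lowest to highest values. In agoshRNA they were RN7SK -0.54 to 0.47, RN7SL1 -0.69 to 0.40, RN7SL2 -0.80 to 0.41, RNU6-1 -0.26 to 0.37, RNU6-8 -0.003 to 0.16, RNU6-9 -0.56 to 1.02 and RPPH1 -0.47 to 0.29. In gRNA they were RN7SL1 -0.10 to 0.47, RN7SL2 -0.25 to 0.24 and RPPH1 -0.14 to 0.14. In pre-gRNA they were RMRP -0.51 to 0.21, RN7SK -0.83 to 0.83, RN7SL1 -0.12 to 0.71, RN7SL2 -0.12 to 0.64, RNU6-2 -0.47 to 0.25, RNU6-8 -0.36 to 0.073 and RPPH1 -0.20 to 0.64. In syn-gRNA they were RNU6-9 -0.43 to 0.19 and RPPH1 -0.20 to 0.12. Over the 4 setups they were RMRP -0.33 to 0.51, RN7SL1 -0.062 to 0.24, RN7SL2 -0.13 to 0.19, RNU6-8 -0.10 to 0.035, RNU6-9 -0.22 to 0.19 and RPPH1 -0.11 to 0.12. For agoshRNA minus gRNA it was RMRP -2.74 to 0.63. For gRNA minus pre-gRNA it was RMRP -0.26 to 3.69. The log2 ratios between setups moved by less than the SD in 199 of 216 values from other scalings and from KD or NTC libraries alone. The 17 others came from KD or NTC alone, for RNU6-1, RNU6-2, RNU6-9 and RMRP. The precision of RMRP, RNU6-2 and RNU6-9, and of RNU6-1 outside agoshRNA, is limited by counts of at most 50 in all libraries but gRNA KD A for RMRP.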
